A study of Homo sapiens with 35 samples.

Results

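MOLM-13 and OCI-AML-3 are established human cell lines from acute myeloid leukaemia, and the comparison here sets their control libraries side by side. The members are 4 of the 35 RNA-seq libraries of a study of the histone methyltransferases SUV39H1 and SUV39H2: 2 of MOLM-13 and 2 of OCI-AML-3, each from cells that carry a control guide (sgControl) and that had neither a knockout nor the phorbol ester TPA. The rule took them by their column names in the deposited count table. The 13 groups of the study also hold knockout libraries of both lines and libraries of the lines U937 and THP-1, which are used below for context. According to the labels, MOLM-13 was grown in RPMI-1640 with 10% serum and OCI-AML-3 in MEM α with 20% serum, so line and medium cannot be told apart. The labels do not say whether the control cells were a clone or a pool. They do not state that the replicates came from separate cultures either. The tests therefore reflect the variation among these 4 libraries, and that variation may be technical.

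The lines stand for different genetic classes of the disease. MOLM-13 carries a KMT2A::MLLT3 fusion and an internal tandem duplication in the receptor tyrosine kinase FLT3. OCI-AML-3 carries a mutant NPM1, a mutant DNMT3A and a mutant NRAS. KMT2A fusions and mutant NPM1 are both known for high HOXA genes and MEIS1 in leukaemic cells, while FLT3 duplications feed STAT5 and mutant NRAS feeds the MAPK pathway. Gene counts do not show these lesions, which are given as background.

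The libraries held 39491595 and 50348794 counted reads in MOLM-13 and 42387183 and 42049390 in OCI-AML-3. Levels below are CPM, reads scaled to a common library total, after TMM scaling, in the order replicate 1 and replicate 2. Differences are log2 fold changes of MOLM-13 minus OCI-AML-3 with their standard error (SE), from edgeR's quasi-likelihood test with Benjamini-Hochberg adjustment and a threshold of 0.05. Replicates were close (correlation of log2 CPM 0.998 in each line) and still differed by more than sampling noise, and pairs of libraries across the lines correlated at 0.886 to 0.887. Of 16315 genes tested, 12062 (73.9%) passed the test, 5972 (36.6%) higher and 6090 (37.3%) lower in MOLM-13. With a difference of at least 2-fold as well, 2414 (14.8%) were higher and 3067 (18.8%) lower. Since most genes passed, a count of members that passed says little by itself, and the shares at 2-fold or more are the background for the lists below. The median over all genes tested was -0.01. In bulk samples, fewer cells of a type and less RNA per cell cannot be told apart.

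The HOX genes differed between the lines cluster by cluster. HOX genes encode homeodomain transcription factors that lie in 4 clusters, and HOXA9 with its cofactor MEIS1 maintains self-renewal in myeloid leukaemia. Both lines expressed HOXA9, HOXA10 and HOXA11 of the HOXA cluster on chromosome 7 and differed in the level of its genes. The HOXB cluster on chromosome 17 was on in OCI-AML-3 and at or near 0 reads in MOLM-13. Of the HOXC and HOXD clusters, 1 gene of 18 had enough reads to test.

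The promoter windows of HOXA7 and HOXA13 are shown because these genes of 1 cluster differed in opposite directions between the lines. Each is 300 bases from RefSeq (GRCh38.p14), from 250 bases before to 50 after the gene's start, read on the minus strand: HOXA7 at chr7:27156626-27156925 and HOXA13 at chr7:27200042-27200341. Capitals mark CCAAT, searched on both strands and written as ATTGG where it lies on the other.
HOXA7: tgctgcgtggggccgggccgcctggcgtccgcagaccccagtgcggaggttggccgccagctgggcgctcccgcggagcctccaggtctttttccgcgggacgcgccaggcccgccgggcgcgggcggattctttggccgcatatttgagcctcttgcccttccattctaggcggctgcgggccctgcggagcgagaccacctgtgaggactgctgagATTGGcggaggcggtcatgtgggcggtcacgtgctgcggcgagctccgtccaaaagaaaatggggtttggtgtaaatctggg
HOXA13: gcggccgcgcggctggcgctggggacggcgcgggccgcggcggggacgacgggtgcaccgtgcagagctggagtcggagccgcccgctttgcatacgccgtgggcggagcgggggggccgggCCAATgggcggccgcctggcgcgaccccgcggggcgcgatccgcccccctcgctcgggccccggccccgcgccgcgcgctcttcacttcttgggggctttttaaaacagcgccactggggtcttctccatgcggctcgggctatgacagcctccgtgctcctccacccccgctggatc
The HOXA7 window holds 31 CpG dinucleotides, a GC content of 68% and 1 CCAAT match at position -32 from the start. The HOXA13 window holds 44 CpG, a GC content of 76.3% and 1 match at -128. Over all 34789 windows the median is 14 CpG and the upper quartile 28, and 34.6% hold at least 1 CCAAT, so both windows are CpG-rich and the match sets neither apart.

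Of 10 HOXA genes tested, 6 were higher and 3 lower in MOLM-13, 5 and 2 of them by at least 2-fold, with a median log2 fold change of 1.40. Without OCI-AML-3 replicate 2, when 11 could be tested, the median was 3.05. HOXA7 had 6.37 and 5.79 CPM in MOLM-13 and no read in OCI-AML-3. Counted against a floor of 3 reads over the group, that is at least 179.7-fold higher. HOXA3 (8.61 and 8.64 CPM in MOLM-13 against 1.03 and 1.01 in OCI-AML-3), HOXA5 (12.3 and 12.4 CPM in MOLM-13 against 1.30 and 1.44 in OCI-AML-3) and HOXA6 (4.40 and 4.36 CPM in MOLM-13 against 0.381 and 0.382 in OCI-AML-3) were also higher in both MOLM-13 libraries, by 8.43-fold, 8.98-fold and 11.4-fold. All 4 lie between HOXA2 and HOXA9 in the cluster. The most abundant in MOLM-13 was HOXA9, at 67.9 and 69.8 CPM in MOLM-13 against 39.6 and 40.8 in OCI-AML-3 (log2 fold change 0.78 ± 0.05, edgeR adjusted p = 2.57e-09).

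Toward the 5′ end of the cluster, HOXA13 and HOXA10 differed the other way. HOXA13 had 135 and 133 CPM in OCI-AML-3 against 8.51 and 10.2 in MOLM-13, 14.2-fold higher in OCI-AML-3 (log2 fold change -3.83 ± 0.06, edgeR adjusted p = 1.97e-15). HOXA10, another 5′ gene, had 80.7 and 72.6 CPM in OCI-AML-3 against 25.9 and 26.3 in MOLM-13, a log2 fold change of -1.55 ± 0.06. HOXA11 between them was nearly level at 30.03 and 31.6 CPM in MOLM-13 against 36.2 and 33.7 in OCI-AML-3, and its call was lost under 5 of 11 alternative settings, among them without either MOLM-13 library (log2 fold changes of -0.14 and -0.21) or without OCI-AML-3 replicate 1 (-0.12). HOTTIP, a long noncoding RNA transcribed from the far side of HOXA13, had 25.1 and 25.7 CPM in OCI-AML-3 against 0.240 and 0.358 in MOLM-13, which is 82.2-fold higher in OCI-AML-3. Per gene length (TPM, reads per kilobase scaled to a common total), HOXA9 led the cluster in MOLM-13 with 69.8 TPM against 35.5 for HOXA11 and 21.6 for HOXA10. In OCI-AML-3 the order was HOXA13 with 97.7, HOXA10 with 75.98, HOXA9 with 48.9 and HOXA11 with 48.3 TPM. Antisense transcripts overlap HOXA10 and HOXA11. Whether reads of this table were counted by strand is not given in the sources used here, so these values are uncertain.

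All 9 HOXB genes tested were lower in MOLM-13, each by at least 2-fold. Their median log2 fold change was -8.29 with genes at 0 reads set to their bound (-10.15 as fitted). HOXB4, known for expanding blood stem cells, had no read in MOLM-13 and 15.4 and 14.7 CPM in OCI-AML-3, at least 426-fold higher there. HOXB5, HOXB6, HOXB9 and HOXB13 were likewise without a read in MOLM-13. In OCI-AML-3, HOXB6 reached 10.9 and 11.2 CPM and HOXB9 11.6 and 9.81 CPM, at least 313-fold and 303-fold higher, and HOXB5 was the lowest of the cluster, at 2.29 and 2.60 CPM. HOXB3 had 2 reads in MOLM-13 and 29.1 and 30.7 CPM in OCI-AML-3, a ratio of 1271 (95% exact interval 351 to 10498). HOXB2 had 1 read in MOLM-13 and 17.2 and 15.5 CPM in OCI-AML-3. Intervals of this kind cover counting error only. HOXB1 was at 0 in all 4 libraries. The noncoding HOXB-AS3 followed the cluster, at 31.7 and 31.3 CPM in OCI-AML-3 against 0 and 0.0843 in MOLM-13. No window for HOXB2 to HOXB13 was in the sequence table, so none is shown.

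The genes that work with HOX proteins differed in both directions. Of 8 cofactors tested, 3 were higher and 4 lower (2 lower without MOLM-13 replicate 2), 2 and 3 of them by at least 2-fold (1 lower without that library). MEIS1 had 48.9 and 44.5 CPM in MOLM-13 against 27.5 and 27.8 in OCI-AML-3, a log2 fold change of 0.75 ± 0.06. PBX3, the partner of HOXA9 and MEIS1 in leukaemia, had 119.8 and 121 CPM in MOLM-13 against 17.6 and 18.9 in OCI-AML-3, 6.60-fold higher in MOLM-13 (edgeR adjusted p = 5.70e-15). MEIS2 was 6.54-fold higher, at 13.6 and 12.98 CPM in MOLM-13 against 2.38 and 1.68 in OCI-AML-3. Over the wider list of KMT2A-fusion and NPM1-leukaemia genes, 14 of 26 were higher and 11 lower, 4 and 1 by 2-fold or more, which is 15.4% and 3.85% against 14.8% and 18.8% of all genes. The repressor BCL11A (52.7 and 52.5 CPM in MOLM-13 against 0.0897 and 0.0898 in OCI-AML-3), the zinc finger factor ZNF521 (124 and 124 CPM in MOLM-13 against 2.47 and 2.16 in OCI-AML-3) and the demethylase homologue JMJD1C (191 and 194 CPM in MOLM-13 against 59.4 and 62.4 in OCI-AML-3) were higher in MOLM-13. KMT2A itself was lower there, at 37.8 and 39.8 CPM in MOLM-13 against 77.7 and 87.6 in OCI-AML-3 (log2 fold change -1.09 ± 0.06), with the fusion and the intact gene counted together. NPM1 did not pass the test (edgeR adjusted p = 0.673), at 1679.5 and 1694 CPM in MOLM-13 against 1725 and 1679.6 in OCI-AML-3.

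**Figure D1:**
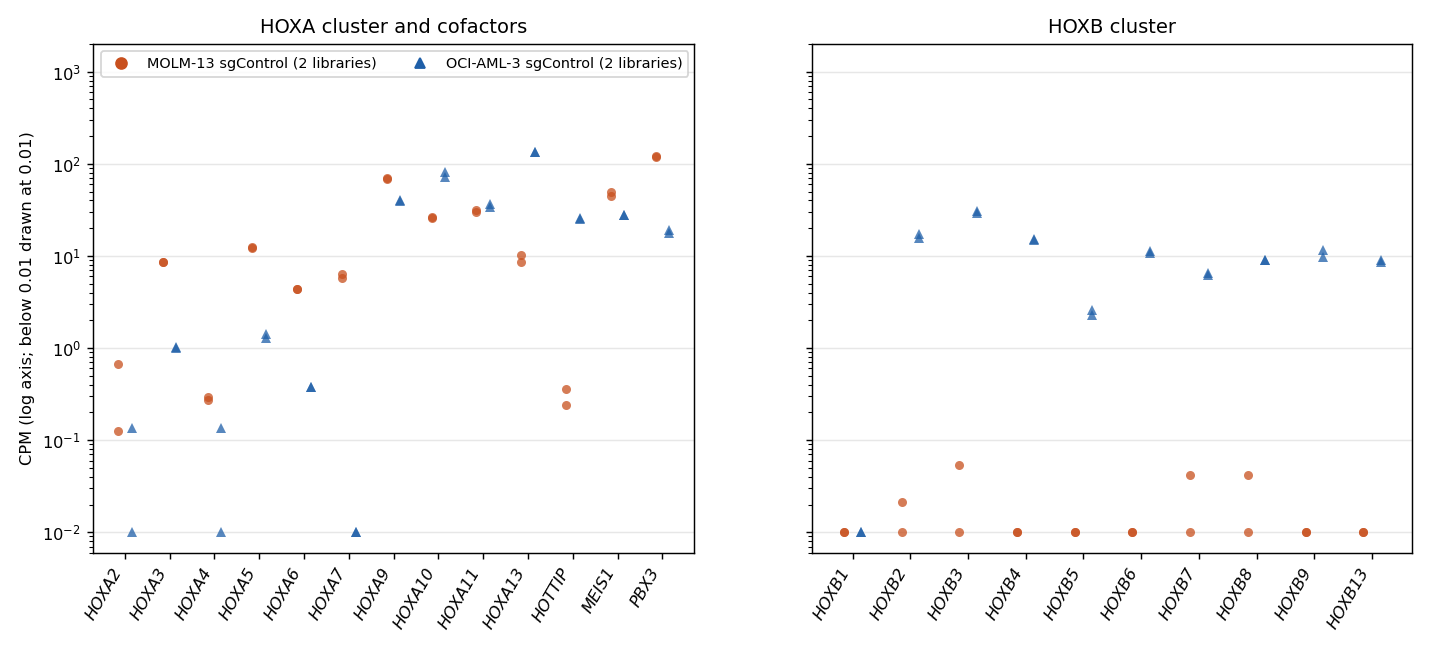
CPM of HOXA genes, HOTTIP, MEIS1 and PBX3 (left) and of HOXB genes (right) on a log axis, with a point for each of the 2 MOLM-13 libraries (circles) and 2 OCI-AML-3 libraries (triangles) and values below 0.01 drawn at 0.01. HOXA3 to HOXA9 sit higher in MOLM-13, HOXA10, HOXA13 and HOTTIP higher in OCI-AML-3, and all HOXB genes but HOXB1 are near or at 0 in MOLM-13 and above it in OCI-AML-3.

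Growth factor receptors differed in both directions. Of 33 tested, 14 were higher and 16 lower in MOLM-13, with a median of -0.28 (-0.15 without OCI-AML-3 replicate 2). At least 2-fold apart were 7 (21.2%) higher and 10 (30.3%) lower, against 14.8% and 18.8% of all genes. FLT3, the kinase that carries the duplication in MOLM-13, had 350.3 and 355 CPM in MOLM-13 against 22.6 and 22.1 in OCI-AML-3. The libraries did not overlap, and the log2 fold change was 3.98 ± 0.04 (edgeR adjusted p = 1.16e-17), or 15.8-fold. FLT3 lies on chromosome 13, whose genes as a whole had a median of 0.86 above all genes; the part of this in the FLT3 difference was not tested. The G-CSF receptor CSF3R had 434 and 447 CPM in MOLM-13 against 89.7 and 93.7 in OCI-AML-3, 4.80-fold higher, and the M-CSF receptor CSF1R 25.6 and 25.9 CPM in MOLM-13 against 12.8 and 11.6 in OCI-AML-3, 2.11-fold higher. FGFR1 (14.1 and 13.97 CPM in MOLM-13 against 0.897 and 0.719 in OCI-AML-3) followed the same direction at low levels.

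Receptors of the other direction belonged to several families. IL18R1, a chain of the interleukin-18 receptor, had 11.1 and 10.8 CPM in OCI-AML-3 against 0.0533 and 0.0421 in MOLM-13. TGFBR1, a receptor for TGF-beta, had 186 and 181 CPM in OCI-AML-3 against 56.9 and 58.9 in MOLM-13, 3.16-fold higher in OCI-AML-3. MERTK, which binds dying cells through bridging ligands, had 6.19 and 6.38 CPM in OCI-AML-3 against 0.160 and 0.0843 in MOLM-13, and its relative TYRO3 was 7.33-fold higher in OCI-AML-3. The third member of that family, AXL, was higher in MOLM-13 instead, at 1.20 and 1.33 CPM in MOLM-13 against 0.0897 and 0.0449 in OCI-AML-3. KIT, the stem cell factor receptor, had 0.0533 and 0.379 CPM in MOLM-13 against 0.0448 and 0 in OCI-AML-3, too few reads to be tested. IL3RA and CSF2RA, which lie in the region shared by the sex chromosomes, had 0 reads in every library, so nothing is read from them.

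STAT5 lies downstream of cytokine receptors and of duplicated FLT3, and switches on its own inhibitors of the SOCS family and the PIM kinases. The list of STAT5 and PIM targets used here also holds STAT5A itself, CCND2 and ID1. Of its 16 genes tested, 13 were higher and 2 lower in MOLM-13, with a median of 0.94. At least 2-fold apart were 7 (43.8%) higher and 1 (6.25%) lower, against 14.8% and 18.8% of all genes. The inhibitor SOCS2 had 101 and 98.3 CPM in MOLM-13 against 1.12 and 0.786 in OCI-AML-3, 104-fold higher (log2 fold change 6.70 ± 0.09, edgeR adjusted p = 3.22e-16). SOCS1 had 10.8 and 10.2 CPM in MOLM-13 against 0.247 and 0.135 in OCI-AML-3, and CISH, the first known member of the family, 51.1 and 49.04 CPM in MOLM-13 against 7.96 and 8.38 in OCI-AML-3. The kinase PIM1 had 204 and 211 CPM in MOLM-13 against 29.7 and 28.7 in OCI-AML-3, a log2 fold change of 2.83 ± 0.04. STAT5A itself was 33.5-fold higher, at 54.99 and 57.9 CPM in MOLM-13 against 1.84 and 1.53 in OCI-AML-3.

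The promoter window of CISH is shown because it is 1 of 7 windows with at least 4 matches to the STAT element TTCNNNGAA. It spans chr3:50611725-50612024 (GRCh38.p14, RefSeq, minus strand), and capitals mark the 4 matches. The element reads the same on both strands.
CISH: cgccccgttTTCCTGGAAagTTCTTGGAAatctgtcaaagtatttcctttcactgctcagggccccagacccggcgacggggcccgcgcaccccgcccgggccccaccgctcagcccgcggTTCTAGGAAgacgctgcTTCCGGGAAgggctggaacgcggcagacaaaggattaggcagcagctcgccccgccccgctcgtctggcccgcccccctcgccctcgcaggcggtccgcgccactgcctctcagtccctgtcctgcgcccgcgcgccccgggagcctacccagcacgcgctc
The matches begin at -241, -230, -129 and -112 from the start. At least 1 match lies in 7.65% of 34789 windows, at least 2 in 0.454% and at least 4 in 0.0201%. Among the 12 genes of the list with a window, CISH was the 1 with a match. The other 11, PIM1 and SOCS1 included, hold none of these letters in this stretch.

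The D-type cyclins, which carry growth signals to the cell cycle, differed in opposite directions. CCND2 had 70.7 and 57.4 CPM in MOLM-13 against 0.0673 and 0.269 in OCI-AML-3. CCND1 showed the reverse, with 83.03 and 90.9 CPM in OCI-AML-3 against 4.72 and 4.80 in MOLM-13, a log2 fold change of -4.19 ± 0.08 (edgeR adjusted p = 3.69e-15). CCND3 was the most abundant of the 3 per length in both, at 235 TPM in MOLM-13 and 181 TPM in OCI-AML-3. MYC had 608 and 618 CPM in MOLM-13 against 314 and 317 in OCI-AML-3, a log2 fold change of 0.96 ± 0.03, and lies on chromosome 8, whose median was 0.77 above all genes; its part was not tested. In the list of STAT5 and PIM targets, the 2 genes lower in MOLM-13 were ID1, an inhibitor of differentiation factors, and PIM3. ID1 had 11.7 and 11.6 CPM in MOLM-13 against 61.3 and 54.5 in OCI-AML-3, and PIM3 a log2 fold change of -0.48 ± 0.05.

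Feedback genes of the RAS and MAPK pathway are switched on by ERK and restrain it. The list used here also holds other genes of the pathway, among them NRAS, CCND1, ETV4 and ETV5. Of 24 tested, 6 were higher and 15 lower in MOLM-13, with a median of -0.57. At least 2-fold apart were 2 (8.33%) higher and 8 (33.3%) lower, against 14.8% and 18.8% of all genes. The receptor-pathway inhibitor SPRY4 had 57.1 and 59.5 CPM in OCI-AML-3 against 7.57 and 6.404 in MOLM-13, 8.40-fold higher in OCI-AML-3 (log2 fold change -3.07 ± 0.08, edgeR adjusted p = 1.51e-13). Its relative SPRED1 had 30.7 and 27.96 CPM in OCI-AML-3 against 9.95 and 8.97 in MOLM-13, and the ERK target PHLDA1 91.5 and 93.4 CPM in OCI-AML-3 against 1.95 and 2.36 in MOLM-13. The phosphatase DUSP4 had 2 reads in MOLM-13 and 8.34 and 7.86 CPM in OCI-AML-3, a ratio of 344 (95% exact interval 94.9 to 2847). The list was not uniform. SPRY1 was higher in MOLM-13, at 6.37 and 5.60 CPM in MOLM-13 against 0.269 and 0.494 in OCI-AML-3, and so was DUSP6, the ERK phosphatase most often read as a measure of the pathway, at 11.1 and 12.5 CPM in MOLM-13 against 7.96 and 6.76 in OCI-AML-3. The RAS inhibitors NF1 (124 and 129.9 CPM in OCI-AML-3 against 63.4 and 62.1 in MOLM-13) and RASA1 (88.6 and 87.9 CPM in OCI-AML-3 against 35.97 and 33.6 in MOLM-13) were higher in OCI-AML-3. NRAS did not pass the test (edgeR adjusted p = 0.544), at 89.2 and 97.3 CPM in MOLM-13 against 92.5 and 90.1 in OCI-AML-3.

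**Figure D2:**
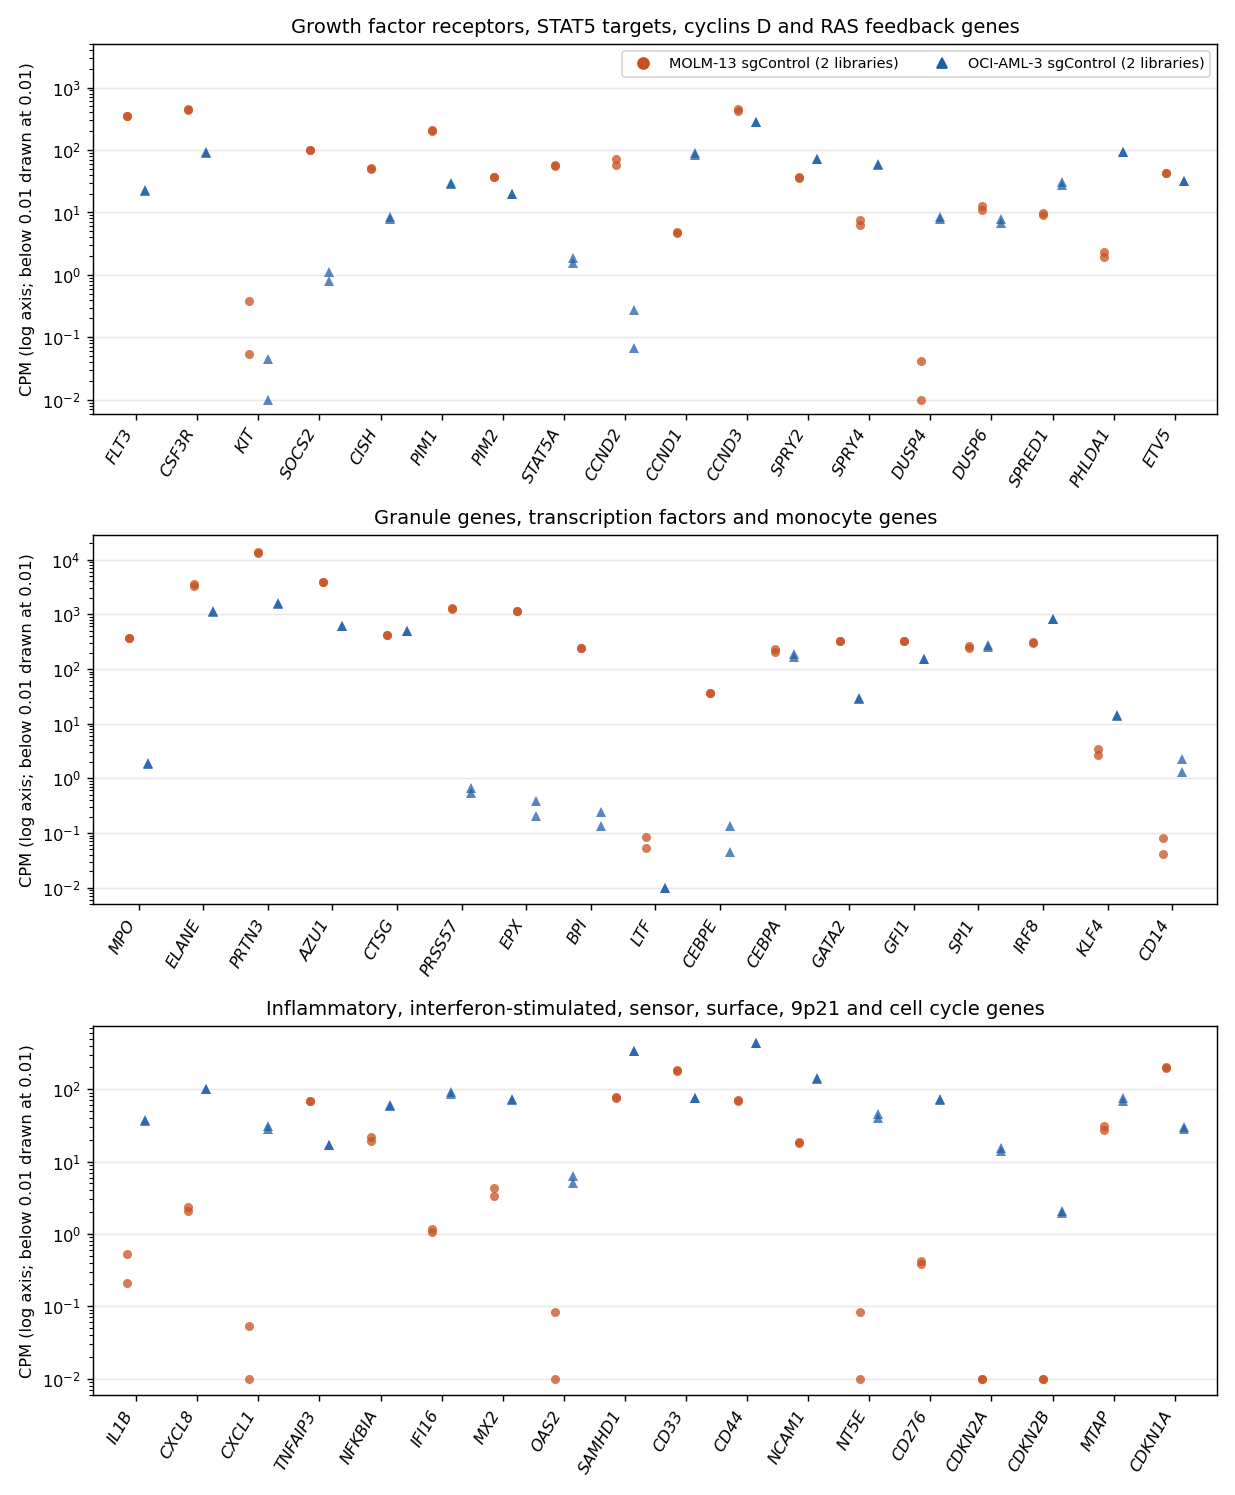
CPM on a log axis of receptor, STAT5, cyclin and RAS feedback genes (top), granule, transcription factor and monocyte genes (middle) and inflammatory, interferon, sensor, surface, 9p21 and cell cycle genes (bottom), with a circle for each MOLM-13 and a triangle for each OCI-AML-3 library and values below 0.01 drawn at 0.01. Replicates lie close together beside the differences between lines for most genes above 1 CPM, such as FLT3 (log2 fold change 3.98) and CD44 (-2.67), and SPI1 nearly coincides.

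Granule genes were higher in MOLM-13 almost throughout. Neutrophils and eosinophils store proteases and antimicrobial proteins in granules, which promyelocytes begin to make. Of 20 tested, 18 were higher in MOLM-13 and 1 lower, 14 and 0 by at least 2-fold, with a median of 2.75. Their summed level was 31988 and 33229 CPM in MOLM-13 and 7578 and 7905 CPM in OCI-AML-3. Proteinase 3, PRTN3, alone made up much of it, with 13418 and 13970.5 CPM in MOLM-13 against 1622 and 1520.3 in OCI-AML-3. The other primary granule proteases were also abundant in both lines. ELANE, neutrophil elastase, had 3264 and 3563 CPM in MOLM-13 against 1138 and 1101 in OCI-AML-3, and AZU1, azurocidin, 3825 and 3863 CPM in MOLM-13 against 614 and 610.1 in OCI-AML-3. Cathepsin G, CTSG, was the 1 lower gene, at 426 and 416 CPM in MOLM-13 against 501 and 491 in OCI-AML-3, a log2 fold change of -0.24 ± 0.03.

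Other granule genes were near 0 in OCI-AML-3. MPO, myeloperoxidase, the defining enzyme of the myeloid lineage in diagnosis, had 369 and 373 CPM in MOLM-13 against 1.86 and 1.91 in OCI-AML-3 (log2 fold change 7.62 ± 0.06, edgeR adjusted p = 1.04e-18). The serine protease PRSS57 had 1248 and 1293 CPM in MOLM-13 against 0.538 and 0.674 in OCI-AML-3. The eosinophil peroxidase EPX had 1152 and 1164 CPM in MOLM-13 against 0.202 and 0.382 in OCI-AML-3, and BPI, which binds bacterial endotoxin, 243 and 240.4 CPM in MOLM-13 against 0.135 and 0.247 in OCI-AML-3. PRG2, the eosinophil major basic protein, had 22.7 and 23.5 CPM in MOLM-13 against 0.0673 and 0.0449 in OCI-AML-3. LTF, lactoferrin, a secondary granule protein made later in maturation, was near 0 in every library, at 0.0533 and 0.0843 CPM in MOLM-13 and 0 and 0 in OCI-AML-3. The chitinase-like CHI3L1 had 518 and 532 CPM in MOLM-13 against 1.35 and 0.674 in OCI-AML-3.

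Transcription factors that set myeloid fate differed in both directions. Of 31 tested, 9 were higher and 18 lower in MOLM-13, with a median of -0.49. At least 2-fold apart were 6 (19.4%) higher and 9 (29.0%) lower, against 14.8% and 18.8% of all genes. SPI1 (PU.1) had 247 and 261 CPM in MOLM-13 against 277 and 252 in OCI-AML-3 and did not pass the test (edgeR adjusted p = 0.242). CEBPA, the factor that starts granulocytic fate, had 205 and 228 CPM in MOLM-13 against 192 and 167 in OCI-AML-3, a log2 fold change of 0.27 ± 0.06 whose call was lost under 3 of 11 alternative settings, among them without MOLM-13 replicate 1 (0.36) or 2 (0.20). CEBPE, a factor of late granulocytes, had 36.3 and 36.7 CPM in MOLM-13 against 0.135 and 0.0449 in OCI-AML-3, a log2 fold change of 8.62 ± 0.18. GFI1, a granulocytic repressor, had 322 and 321 CPM in MOLM-13 against 150.3 and 155 in OCI-AML-3. Factors of monocytes lay the other way. IRF8 had 819.9 and 823 CPM in OCI-AML-3 against 305 and 308 in MOLM-13, KLF4 13.6 and 14.6 CPM in OCI-AML-3 against 2.67 and 3.43 in MOLM-13 and CEBPB 48.9 and 39.7 CPM in OCI-AML-3 against 7.57 and 9.02 in MOLM-13. The dendritic factor TCF4 was 21.1-fold higher in OCI-AML-3, at 70.2 and 70.1 CPM in OCI-AML-3 against 3.36 and 3.29 in MOLM-13, whereas TFEC (43.2 and 46.6 CPM in MOLM-13 against 0.0448 and 0.0898 in OCI-AML-3) and ZBTB16 (72.2 and 71.6 CPM in MOLM-13 against 1.75 and 1.30 in OCI-AML-3) were higher in MOLM-13.

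Progenitor genes had many members past 2-fold in both directions: of 20 tested, 9 higher and 7 lower. GATA2, a stem and progenitor factor, had 320.0 and 327 CPM in MOLM-13 against 27.7 and 28.9 in OCI-AML-3, 11.4-fold higher in MOLM-13. WT1, which is followed in patients as a marker of leukaemic burden, had 91.7 and 92.4 CPM in MOLM-13 against 0.224 and 0.0449 in OCI-AML-3, a log2 fold change of 9.39 ± 0.14. MYB had 694 and 689 CPM in MOLM-13 against 238 and 229.6 in OCI-AML-3. In OCI-AML-3, ERG had 13.9 and 12.8 CPM against no read in MOLM-13, at least 378-fold higher, and SOX4 had 202 and 196 CPM in OCI-AML-3 against 46.5 and 46.2 in MOLM-13. CD34 was low in all 4 libraries, at 0 and 0.126 CPM in MOLM-13 and 0.583 and 0.494 in OCI-AML-3. Of the 11 tested genes of the LSC17 stemness score, 5 were higher and 4 lower, 3 in each direction by 2-fold, with no common direction.

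Monocyte and macrophage genes were divided, too. Of 48 tested, 21 were higher and 22 lower in MOLM-13, with a median of -0.20 (-0.13 and -0.07 without MOLM-13 replicates 1 and 2). At least 2-fold apart were 12 (25%) higher and 17 (35.4%) lower, against 14.8% and 18.8% of all genes. ITGAL, the integrin chain of LFA-1, had 869 and 856 CPM in MOLM-13 against 33.9 and 37.3 in OCI-AML-3, 24.2-fold higher in MOLM-13, and the lysozyme gene LYZ 600.4 and 622 CPM in MOLM-13 against 246 and 246 in OCI-AML-3. CYBB, the catalytic chain of the phagocyte oxidase, had 292 and 299 CPM in OCI-AML-3 against 10.2 and 10.2 in MOLM-13, 28.9-fold higher in OCI-AML-3. VCAN, a proteoglycan of classical monocytes, had 61.4 and 65.3 CPM in OCI-AML-3 against 0 and 0.0843 in MOLM-13. CD14, the endotoxin co-receptor, was low in both, at 2.22 and 1.30 CPM in OCI-AML-3 against 0.0800 and 0.0421 in MOLM-13. The signalling adaptors of Fc and related receptors lay in opposite directions: TYROBP had 109 and 115 CPM in MOLM-13 against 15.02 and 13.99 in OCI-AML-3, and FCER1G 93.1 and 88.99 CPM in OCI-AML-3 against 3.04 and 3.12 in MOLM-13. CD163 had no read in MOLM-13 and 2.40 and 2.16 CPM in OCI-AML-3. CD68, a marker of macrophage lysosomes, was low in all libraries, at 0.187 and 0.0632 CPM in MOLM-13 against 0.247 and 0.449 in OCI-AML-3, a call lost under 9 of 11 alternative settings.

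Surface antigens used in sorting and therapy differed widely: of 53 tested, 30 were higher and 22 lower in MOLM-13. At least 2-fold apart were 18 (34.0%) higher and 15 (28.3%) lower, against 14.8% and 18.8% of all genes. CD33, the target of gemtuzumab, had 179 and 182 CPM in MOLM-13 against 74.6 and 75.9 in OCI-AML-3, 2.40-fold higher in MOLM-13. The transferrin receptor TFRC had 748 and 748 CPM in MOLM-13 against 177 and 187 in OCI-AML-3, and CD47, the signal against phagocytosis, 98.3 and 105.2 CPM in MOLM-13 against 34.6 and 34.6 in OCI-AML-3. ICAM3 had 21.3 and 22.8 CPM in MOLM-13 and 2 reads in OCI-AML-3, a ratio of 986 (95% exact interval 273 to 8148). The adhesion receptor CD44 had 439.8 and 436 CPM in OCI-AML-3 against 70.3 and 67.9 in MOLM-13, 6.35-fold higher, and NCAM1 (CD56) 140.0 and 144 CPM in OCI-AML-3 against 18.6 and 18.1 in MOLM-13. NT5E, which makes adenosine from AMP, had 40.6 and 45.9 CPM in OCI-AML-3 against 0 and 0.0843 in MOLM-13, and the checkpoint ligand CD276 72.9 and 69.97 CPM in OCI-AML-3 against 0.427 and 0.379 in MOLM-13. DPP4 had 2 reads in MOLM-13 and 13.8 and 13.8 CPM in OCI-AML-3. CD274 (PD-L1) was near 0, at 0.160 and 0.253 CPM in MOLM-13 against 0 and 0 in OCI-AML-3, while the ligand NECTIN2 had 195 and 206 CPM in MOLM-13 against 28.6 and 33.5 in OCI-AML-3.

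Inflammatory genes driven by NF-kB were mostly higher in OCI-AML-3. Of 28 tested, 5 were higher and 20 lower in MOLM-13, 4 and 13 by at least 2-fold, with a median of -0.90. Without MOLM-13 replicate 2, 3 were higher. The cytokine IL1B had 37.02 and 36.6 CPM in OCI-AML-3 against 0.533 and 0.211 in MOLM-13, a log2 fold change of -6.69 ± 0.17 (edgeR adjusted p = 1.06e-13). The neutrophil attractant CXCL8 had 102 and 99.5 CPM in OCI-AML-3 against 2.35 and 2.11 in MOLM-13, and CXCL1 2 reads in MOLM-13 and 30.7 and 28.2 CPM in OCI-AML-3. NFKBIA and NFKBIZ, which NF-kB switches on to regulate itself, were 2.89-fold and 11.7-fold higher in OCI-AML-3. Exceptions were TNFAIP3 (A20), the deubiquitinase that ends the signal, with 68.3 and 67.8 CPM in MOLM-13 against 16.7 and 17.02 in OCI-AML-3, and SOD2, with 144 and 136 CPM in MOLM-13 against 66.1 and 67.9 in OCI-AML-3. Immediate early genes, which answer to MAPK as well, had 8 higher and 16 lower of 28 tested, 2 and 9 by 2-fold. JUN was at 13.8 and 14.1 CPM in OCI-AML-3 against 0.640 and 1.52 in MOLM-13, and FOSL2 3.11-fold higher in OCI-AML-3, whereas JUND was 3.10-fold higher in MOLM-13.

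Interferon-stimulated genes encode antiviral proteins. Of 54 tested, 17 were higher and 26 lower in MOLM-13, with a median of -0.39 (-0.22 without OCI-AML-3 replicate 2). At least 2-fold apart were 6 (11.1%) higher and 14 (25.9%) lower, against 14.8% and 18.8% of all genes. Of the defining members, ISG15, MX1, OAS1 and IRF7 did not pass the test, with IRF7 at 10.00 and 10.9 CPM in MOLM-13 against 9.64 and 10.2 in OCI-AML-3, and the call of IFIT1 (0.628 and 0.404 CPM in OCI-AML-3 against 0.160 and 0.253 in MOLM-13) was lost under 8 of 11 alternative settings. MX2, which blocks viral entry to the nucleus, had 69.98 and 73.7 CPM in OCI-AML-3 against 4.27 and 3.31 in MOLM-13. OAS2 had 4.98 and 6.31 CPM in OCI-AML-3 against 0 and 0.0843 in MOLM-13. IFITM1, a membrane barrier to viruses, was the reverse, at 10.6 and 10.6 CPM in MOLM-13 against 0.0897 and 0.0674 in OCI-AML-3. Among genes of nucleic acid sensing, 6 of 19 were higher and 10 lower, 2 (10.5%) and 6 (31.6%) by at least 2-fold, against 14.8% and 18.8% of all genes. Leaving out either MOLM-13 library or OCI-AML-3 replicate 1 left 1 at least 2-fold higher. The DNA sensor IFI16 had 91.6 and 86.1 CPM in OCI-AML-3 against 1.17 and 1.05 in MOLM-13, 80.1-fold higher in OCI-AML-3. SAMHD1, which degrades nucleotides and inactivates the active form of cytarabine, had 336 and 338 CPM in OCI-AML-3 against 75.1 and 78.5 in MOLM-13, 4.38-fold higher in OCI-AML-3. CGAS was 2.12-fold higher in MOLM-13, and its partner STING1 and the RNA editor ADAR were 1.79-fold and 2.22-fold higher in OCI-AML-3.

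Genes of antigen presentation differed in both directions. Of 22 class I genes tested, 11 were higher and 10 lower. At least 2-fold apart were 4 (18.2%) higher and 3 (13.6%) lower, near the 14.8% and 18.8% of all genes. HLA-C had 646 and 665 CPM in MOLM-13 against 295 and 286 in OCI-AML-3, and HLA-B did not pass the test (354 and 371 CPM in MOLM-13 against 369 and 359 in OCI-AML-3, edgeR adjusted p = 0.886). These genes are near copies of each other and differ between people, so reads can be lost or misplaced. The peptide transporter chain TAP2 (52.8 and 56.4 CPM in OCI-AML-3 against 13.4 and 13.2 in MOLM-13) and the immunoproteasome chain PSMB9 (32.96 and 32.3 CPM in OCI-AML-3 against 4.69 and 5.10 in MOLM-13) were higher in OCI-AML-3, and the trimming enzyme ERAP1 (92.1 and 92.4 CPM in MOLM-13 against 32.8 and 31.01 in OCI-AML-3) in MOLM-13. Class II genes were low in both lines apart from the chaperone CD74, at 132 and 129 CPM in MOLM-13 against 97.8 and 96.04 in OCI-AML-3, and the factor RFX5, at 73.4 and 76.2 CPM in MOLM-13 against 107 and 107 in OCI-AML-3. HLA-DRA had 1.87 and 1.94 CPM in MOLM-13 against 0.179 and 0.269 in OCI-AML-3.

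The 9p21 interval holds the cell cycle inhibitors p16 and p15. CDKN2A and CDKN2B had no read in MOLM-13 and 15.4 and 13.9, and 2.06 and 1.98 CPM in OCI-AML-3, at least 415-fold and 57.2-fold higher there. Their neighbour MTAP was read in both lines, at 68.9 and 74.5 CPM in OCI-AML-3 against 27.3 and 30.5 in MOLM-13, and CDKN2B-AS1 did not pass the test (edgeR adjusted p = 0.311). DNA was not measured here. The cell cycle inhibitor CDKN1A (p21) had 196 and 201 CPM in MOLM-13 against 29.6 and 28.3 in OCI-AML-3, 6.86-fold higher (log2 fold change 2.78 ± 0.04, edgeR adjusted p = 7.03e-16).

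Among BCL2 family genes, which decide cell death at mitochondria, 8 of 18 were higher and 7 lower. At least 2-fold apart were 2 (11.1%) higher and 3 (16.7%) lower, near the 14.8% and 18.8% of all genes. BCL2, the target of venetoclax, had 199 and 202 CPM in MOLM-13 against 148 and 156 in OCI-AML-3. MCL1, its relative that can replace it, had 362 and 364 CPM in OCI-AML-3 against 182 and 187 in MOLM-13, 1.97-fold higher in OCI-AML-3. The death-promoting BIK (21.6 and 25.7 CPM in MOLM-13 against 2.02 and 1.75 in OCI-AML-3) and BMF (32.4 and 32.1 CPM in MOLM-13 against 6.55 and 5.43 in OCI-AML-3) were higher in MOLM-13, and BCL2L11 (BIM), at 74.04 and 71.7 CPM in OCI-AML-3 against 31.1 and 31.4 in MOLM-13, in OCI-AML-3. Of 41 proliferation genes, 19 were higher and 14 lower, but 2 (4.88%) and 1 (2.44%) by 2-fold. Without MOLM-13 replicate 2, 9 were lower.

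The enzymes that the study targets were at similar levels before any knockout. SUV39H1, which trimethylates histone H3 at lysine 9, had 31.5 and 28.9 CPM in MOLM-13 against 38.5 and 36.8 in OCI-AML-3, a log2 fold change of -0.32 ± 0.06 (edgeR adjusted p = 3.47e-04). SUV39H2 had 27.9 and 30.02 CPM in MOLM-13 against 27.8 and 22.9 in OCI-AML-3 and missed the threshold (edgeR adjusted p = 0.051). Of 32 genes of H3K9 methylation and heterochromatin, 2 in each direction passed 2-fold, among them SETDB2 (log2 fold change 2.34 ± 0.06, on chromosome 13) and SMCHD1 (1.46 ± 0.04). Of 12 DNA methylation genes, 9 were higher and 3 lower, with 0 past 2-fold, and DNMT3A, mutant in OCI-AML-3, was at 71.03 and 68.1 CPM in OCI-AML-3 against 45.5 and 44.4 in MOLM-13. Among polycomb and other regulators, BMI1, a subunit of PRC1 needed for stem cell renewal, had 241 and 252 CPM in MOLM-13 against 14.2 and 11.9 in OCI-AML-3, 18.9-fold higher in MOLM-13. Its paralogue PCGF2 had the reverse, 10.1 and 10.1 CPM in OCI-AML-3 against 0.800 and 0.253 in MOLM-13, and the PRC1 subunit CBX2 was 5.48-fold higher in OCI-AML-3.

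Many of the numbered ZNF genes on chromosome 19 encode KRAB zinc finger proteins, which bind retroelements and recruit H3K9 methylation to them. Of 198 numbered ZNF genes of this chromosome tested, 74 were higher and 88 lower in MOLM-13, but 19 and 61 by at least 2-fold. So 30.8% were at least 2-fold lower, against 18.8% of all genes, although chromosome 19 as a whole had a median of 0.38 above all genes. ZNF93, ZNF43, ZNF85 and ZNF486 had no read in MOLM-13. ZNF93, which represses LINE-1 elements, reached 24.8 and 25.2 CPM in OCI-AML-3, at least 708-fold higher, and ZNF43 was at least 544-fold higher. ZNF91, a repressor of SVA elements, had 12.02 and 13.4 CPM in OCI-AML-3 against 0.0533 and 0 in MOLM-13. ZNF160 showed the opposite, with 16.1 and 19.7 CPM in MOLM-13 and no read in OCI-AML-3. Several of these genes are near copies of each other, so their counts are uncertain.

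Imprinted and germline genes included genes read in 1 line and nearly unread in the other. TEX15, a gene of male germ cells, had 125 and 131 CPM in MOLM-13 and no read in OCI-AML-3, at least 3824-fold higher. In the imprinted 15q11 region, the long transcript SNHG14 had 149 and 148 CPM in MOLM-13 against 0.135 and 0.0449 in OCI-AML-3 and SNRPN had 2.83 and 2.40 CPM against no read. UBE3A beside them was nearly level, at 90.1 and 93.7 CPM in MOLM-13 against 113 and 111 in OCI-AML-3. MEST had 46.2 and 45.8 CPM in MOLM-13 against 0.673 and 0.314 in OCI-AML-3. The imprinted ZNF331 (20.4 and 19.1 CPM in OCI-AML-3 against 0.160 and 0.126 in MOLM-13) and NAP1L5 (6.08 and 6.74 CPM in OCI-AML-3 against 0.0533 and 0.126 in MOLM-13) were higher in OCI-AML-3. Of 20 imprinted genes tested, 9 were higher and 5 lower, and fewer were higher when either MOLM-13 library was left out. At least 2-fold apart were 4 (20%) higher and 3 (15%) lower, near the 14.8% and 18.8% of all genes.

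Of 30 glycolysis and hypoxia genes tested, 7 were higher and 21 lower in MOLM-13, with a median of -0.47. At least 2-fold apart were 0 higher and 7 (23.3%) lower, against 14.8% and 18.8% of all genes. HK1, a hexokinase, had 128 and 132 CPM in OCI-AML-3 against 11.3 and 10.05 in MOLM-13, 12.3-fold higher in OCI-AML-3. The muscle-type phosphofructokinase PFKM had 28.9 and 30.8 CPM in OCI-AML-3 against 1.92 and 1.73 in MOLM-13, and the hypoxia factor EPAS1 (HIF-2 alpha) 30.6 and 31.2 CPM in OCI-AML-3 against 1.15 and 1.52 in MOLM-13. PFKL, the liver type, had 312 and 311 CPM in MOLM-13 against 316 and 318 in OCI-AML-3 and did not pass the test (edgeR adjusted p = 0.47). In the secretory pathway, HSPA5, HSP90B1 and CALR, chaperones of the endoplasmic reticulum, were 2.73-fold, 2.35-fold and 4.56-fold higher in MOLM-13, and XBP1, a factor of the unfolded protein response, 2.80-fold. Lipid synthesis gave 3 (10%) higher and 2 (6.67%) lower of 30 past 2-fold. ELOVL6, a fatty acid elongase, had 35.5 and 37.2 CPM in MOLM-13 and no read in OCI-AML-3. In detoxification, 11 of 29 genes tested were higher and 13 lower in MOLM-13, with a median of -0.10. In each direction, 7 (24.1%) differed by at least 2-fold. The aldehyde dehydrogenase ALDH2 was 7.48-fold and CYP1B1 106-fold higher in MOLM-13, while ALDH1A1 and HMOX1 were lower there. Iron uptake by TFRC was described above, while the iron exporter SLC40A1 had no read in MOLM-13 and 4.71 and 5.39 CPM in OCI-AML-3. Of 83 cytosolic ribosomal protein genes, 72 were higher in MOLM-13 and 5 lower (3 without MOLM-13 replicate 1), with a median of 0.43. At 2-fold or more, 11 (13.3%) were higher and 0 lower, against 14.8% and 18.8% of all genes.

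**Figure D3:**
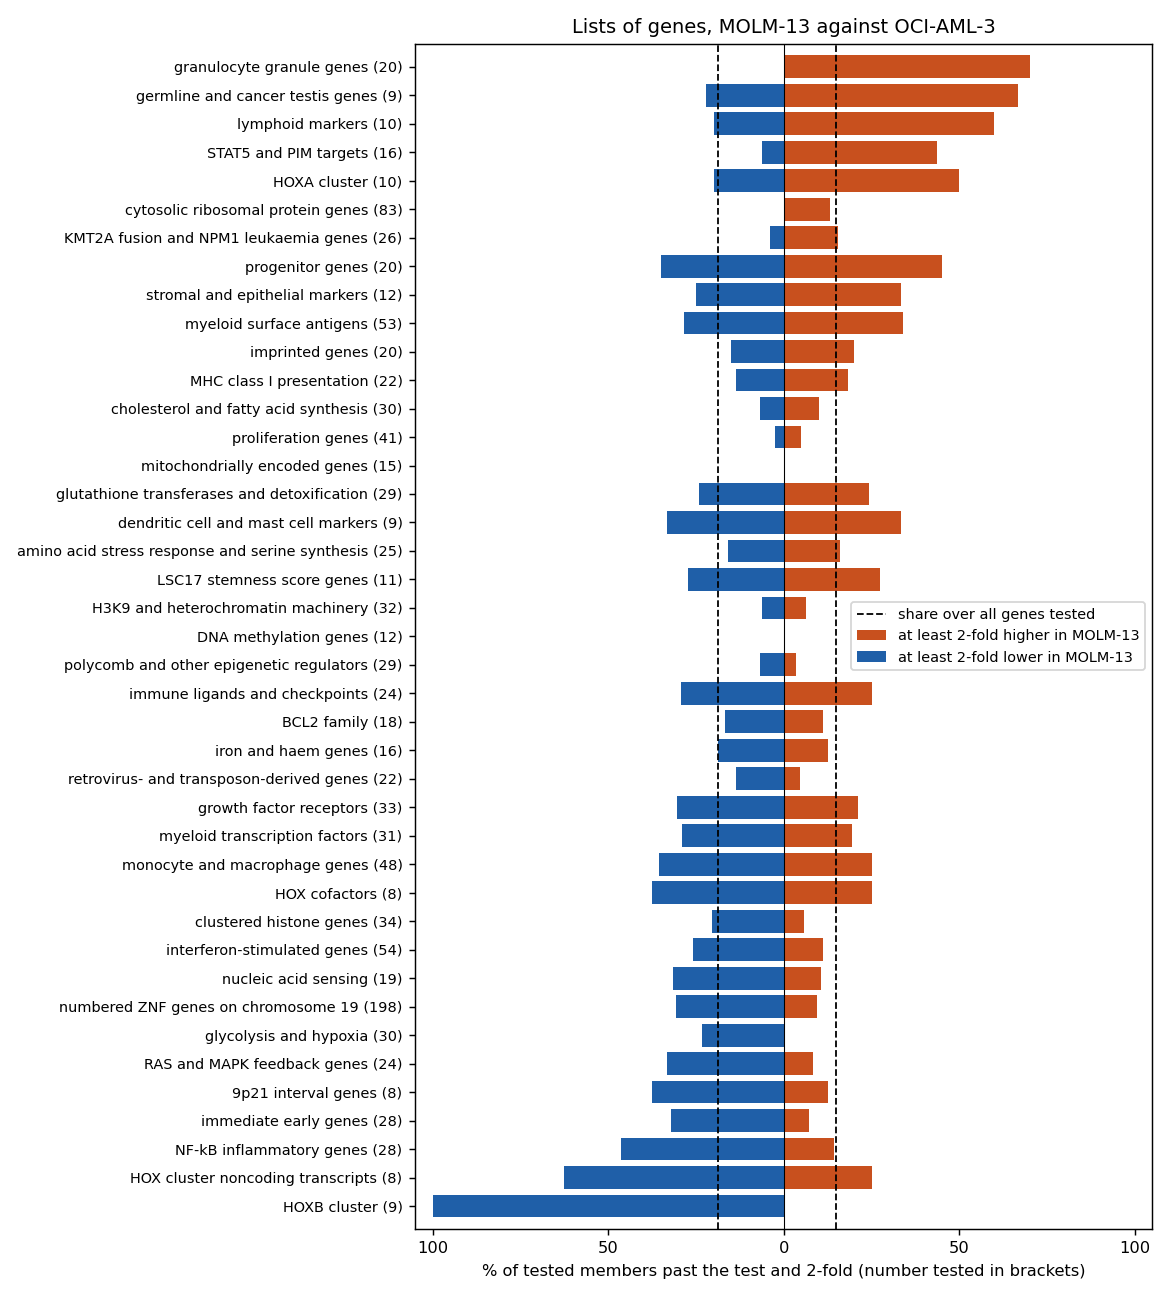
Share of the tested members of each list shown that passed the test and differed by at least 2-fold, to the right where higher and to the left where lower in MOLM-13, with the number tested in brackets and dashed lines at the shares over all genes tested (14.8% and 18.8%). Granule genes reach furthest to the right (14 of 20) and HOXB genes furthest to the left (9 of 9).

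Markers of other cell types were checked in both lines. Lymphoid markers summed to 176 and 182 CPM in MOLM-13 and 9.75 and 10.8 in OCI-AML-3, with 6 of 10 tested members higher and 2 lower in MOLM-13. Among the defining markers, CD3E had no read in any library, and CD79A, PAX5, DNTT and LCK were at or below the 0.421 CPM of DNTT in MOLM-13 replicate 2. IGLL1, a surrogate light chain of early B cells, had 103 and 108 CPM in MOLM-13 and 2 reads in OCI-AML-3, IGKC 18.9 and 19.6 CPM in MOLM-13 against 0 and 0.0449 in OCI-AML-3, and TRAC 8.56 and 9.80 CPM in MOLM-13 against 0 and 0.0449 in OCI-AML-3. Stromal and epithelial markers summed to 217 and 220.1 CPM in MOLM-13 and 638 and 650.2 in OCI-AML-3, led there by VIM and by fibronectin, FN1, at 151 and 158 CPM in OCI-AML-3 against 1.17 and 1.33 in MOLM-13. KRT18 had 17.6 and 18.1 CPM in MOLM-13 and no read in OCI-AML-3. Erythroid markers summed to 2.27 and 3.27 CPM in MOLM-13 and 61.8 and 63.5 in OCI-AML-3, nearly all in OCI-AML-3 from GYPC, at 63.3 and 61.5 CPM in OCI-AML-3 against 1.55 and 2.30 in MOLM-13. The erythroid factor GATA1 lay the other way, at 0.427 and 0.590 CPM in MOLM-13 and no read in OCI-AML-3, while HBA1, HBB and HBG1 had no read. Dendritic and mast cell markers summed to 22.6 to 23.7 CPM in MOLM-13 and 73.2 to 73.9 in OCI-AML-3. Of 9 tested, 3 were higher and 3 lower in MOLM-13. The mast cell tryptase TPSB2 had 13.5 and 12.8 CPM in MOLM-13 against 0.0448 and 0.0449 in OCI-AML-3, while TCF4, described above, was lower in MOLM-13. Megakaryocyte markers summed to 148 to 152 CPM in MOLM-13 and 44.9 to 45.6 in OCI-AML-3. Of 6 tested, 1 was higher in MOLM-13, the factor NFE2, and 2 were lower. Among the defining markers, ITGA2B did not pass the test, and GP9 and PF4 had too few reads to be tested. Whether these reads came from the leukaemic cells themselves was not tested.

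Some genes were read in 1 line only. The genes counted here had at least 1 CPM in both libraries of the other line. Of these, 186 had no read in either MOLM-13 library and 134 none in either OCI-AML-3 library. Of the first kind, CGNL1, a junction protein, had 108 and 122 CPM in OCI-AML-3 (at least 3262-fold higher), SERPINB9, the inhibitor of granzyme B, 103 and 102 CPM, and IGF2BP1, an RNA-binding protein of fetal cells, 62.04 and 68.8 CPM. MARCKS (81.7 and 85.2 CPM) and BEX3 (74.3 and 76.3 CPM) were of this kind as well. Of the second kind, LIN7A, a scaffold protein, had 134 and 131 CPM in MOLM-13 (at least 3943-fold higher), the sphingosine phosphate receptor S1PR4 100.2 and 106 CPM and SNX19 71.6 and 71.4 CPM.

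Among abundant genes with at least a 4-fold difference, the homeobox gene IRX3 had 417 and 379.6 CPM in OCI-AML-3 against 6.45 and 5.35 in MOLM-13, 68.1-fold higher in OCI-AML-3. LPCAT1, which remodels membrane lipids, had 870.0 and 883 CPM in OCI-AML-3 against 54.8 and 56.96 in MOLM-13, and ASGR2, a chain of the asialoglycoprotein receptor, 264 and 263 CPM in OCI-AML-3 against 4.08 and 3.79 in MOLM-13. MLC1, a membrane protein known from glia, had 788 and 808 CPM in MOLM-13 against 9.35 and 9.84 in OCI-AML-3, 83.2-fold higher. HSH2D, an adaptor of blood cells, had 469 and 468 CPM in MOLM-13 against 16.9 and 18.2 in OCI-AML-3.

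The knockout libraries of the study give the line difference in samples that the rule did not use: 2 MOLM-13 libraries with SUV39H1 knocked out (SKO) against 2 OCI-AML-3 libraries with SUV39H1 and SUV39H2 knocked out (DKO). The knockouts differ between the lines, so line and genotype cannot be told apart there. SUV39H1 had 8.53 and 7.47 CPM in the MOLM-13 SKO and 2.81 and 4.32 in the OCI-AML-3 DKO, below all 4 control libraries, and SUV39H2 had 20.98 and 18.01 CPM in the DKO, below both OCI-AML-3 controls. In these libraries, 12002 of 16802 genes tested (71.4%) passed. Of the 5109 genes at least 2-fold apart in the controls and tested in both sets, 4917 (96.2%) had the same direction and 4538 (88.8%) passed the test in it, while 80 (1.57%) passed in the opposite direction. At 4-fold or more, 2723 of 2776 (98.1%) had the same direction. Of all 11689 called genes tested in both, 10543 (90.2%) did, 9234 (79.0%) passed in the same direction and 515 (4.41%) in the opposite one.

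For genes named above, the knockout libraries gave these values. FLT3 had a log2 fold change of 4.96 ± 0.06 in the knockout libraries against 3.98 ± 0.04 in the controls, CISH 4.21 ± 0.08 against 2.61 ± 0.07, HOXA13 -6.31 ± 0.10 against -3.83 ± 0.06, and PRTN3 4.01 ± 0.04 against 3.12 ± 0.03. MEIS2 was opposite, at -1.51 ± 0.25 against 2.71 ± 0.15, with 1.19 and 0.931 CPM in the MOLM-13 SKO and 2.85 and 3.19 in the OCI-AML-3 DKO. ID1 was opposite as well, at 0.89 ± 0.11. SAMHD1 was nearly level in the knockout libraries (0.11 ± 0.05, edgeR adjusted p = 0.0336), with 281 and 291 CPM in the MOLM-13 SKO and 267 and 261 in the OCI-AML-3 DKO. AXL had 4.92 and 4.65 CPM in the MOLM-13 SKO and no read in the OCI-AML-3 DKO. CTSG, nearly level in the controls, had 147 and 149 CPM in the MOLM-13 SKO and 1087 and 1140.4 in the OCI-AML-3 DKO. The change from control to knockout within a line was not tested here.

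**Figure D4:**
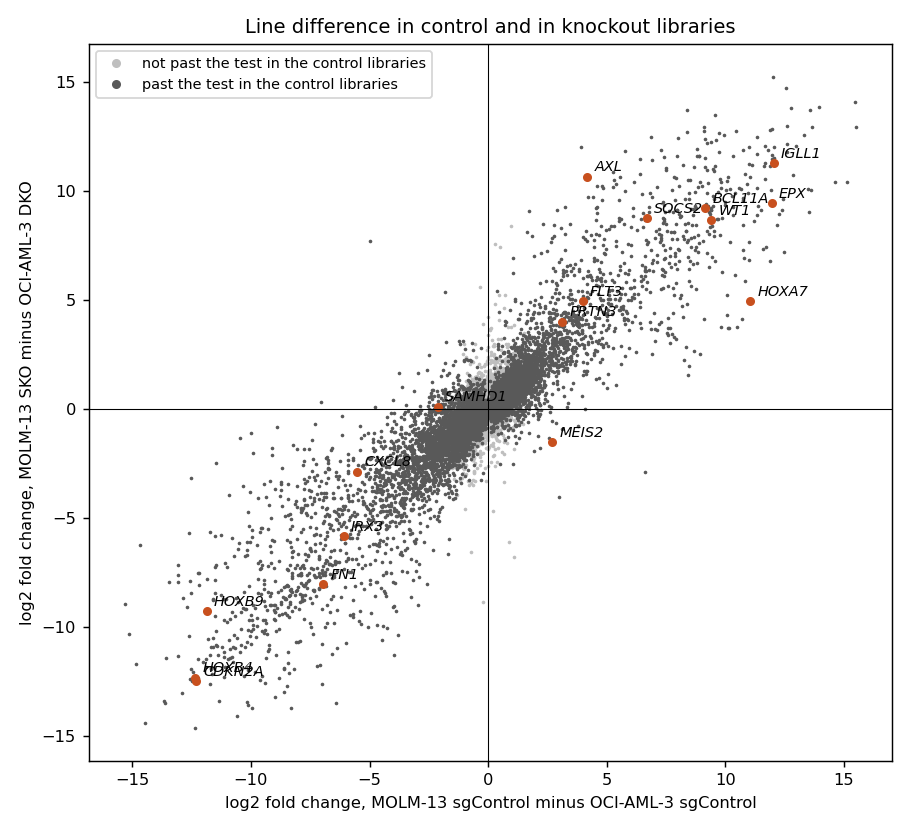
Each point is a gene tested in both sets, with the log2 fold change of MOLM-13 minus OCI-AML-3 in the control libraries on the horizontal axis and of MOLM-13 SKO minus OCI-AML-3 DKO on the vertical axis, dark where the gene passed the test in the controls and orange for named genes. Most points lie along the diagonal, SAMHD1 lies near 0 on the vertical axis, and MEIS2 lies on the other side of it.

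The other lines of the study gave context for the HOX pattern. U937 and THP-1 are monocytic leukaemia lines, and THP-1 also carries a KMT2A::MLLT3 fusion. Their 3 control libraries each were counted in another table. For these values the control libraries of the 4 lines were scaled together by TMM. The levels are set side by side, with no test. HOXB4 had 0.0158 ± 0.0273 CPM (SD, n = 3) in U937 and 3.11 ± 0.146 in THP-1, and HOXB9 was at 0 in U937 and 0.0276 ± 0.0478 in THP-1. HOXA9 had 23.4 ± 0.890 in U937 and 33.6 ± 2.49 in THP-1, and HOXA7 1.25 ± 0.488 and 0.176 ± 0.151. Of the values of the 4 lines, HOXA13 was highest in OCI-AML-3, with 55.5 ± 4.85 in U937 and 114 ± 1.21 in THP-1. FLT3 was highest in MOLM-13, with 7.80 ± 0.450 in U937 and 32.9 ± 0.870 in THP-1. SOCS2 had 8.38 ± 0.742 and 4.89 ± 0.441, and MPO 0.327 ± 0.145 and 6.28 ± 1.06.

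Whole chromosomes differed in level. Among genes whose log2 CPM averaged 2 or more, the median log2 fold change relative to all genes was 0.86 for chromosome 13 (185 genes, SD 0.020 over the 4 pairs of libraries) and 0.77 for chromosome 8 (370 genes, SD 0.014). Of these genes, 85.9% and 86.8% lay above the median of all. Chromosome 19 followed with 0.38 (757 genes) and chromosome 6 with 0.26 (522 genes). At the other end, chromosome 7 had -0.33 (518 genes), chromosome 1 had -0.24 (1077 genes) and chromosome 17 had -0.22 (663 genes). In the knockout libraries the values were 0.80 for chromosome 13, 0.78 for chromosome 8 and -0.33 for chromosome 7. The pairs share libraries, so the SD describes these 4 libraries only. DNA copy number was not measured here, and its part was not tested.

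**Figure D5:**
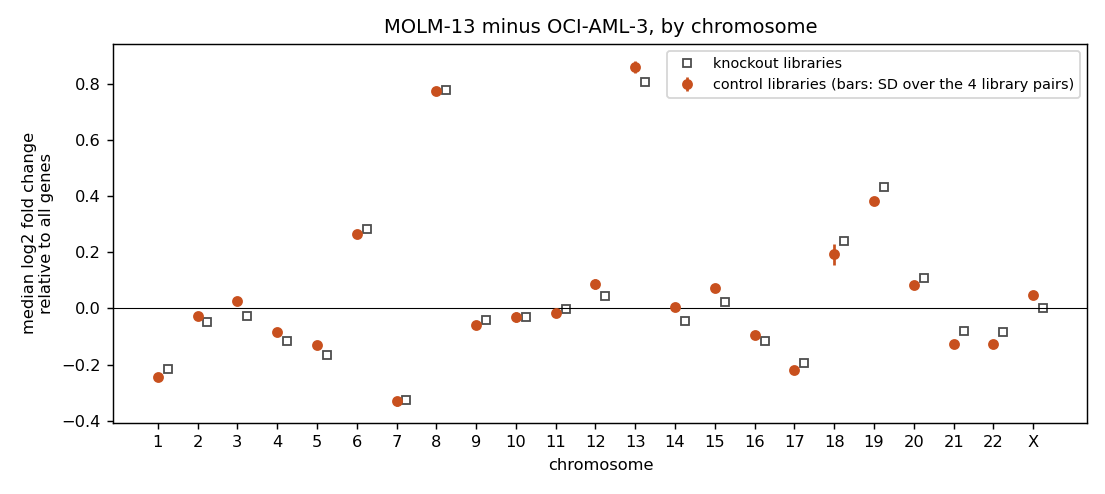
Median log2 fold change of MOLM-13 minus OCI-AML-3 for the genes of each chromosome, relative to the median of all genes, in the control libraries (points, with bars for the SD over the 4 library pairs) and in the knockout libraries (squares). Chromosomes 8 (0.77) and 13 (0.86) stand above the rest, and chromosome 7 (-0.33) is the lowest, in both sets.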

How the data were processed

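Poly(A) RNA was sequenced from 35 libraries, 4 of which are compared here. The authors deposited whole-number counts of reads per gene. Per the submitters' processing notes, fastp 0.23.4, STAR 2.7.11b and Subread 2.0.6 were used with hg38. Per the file headers of the other deposited table, featureCounts 2.0.6 counted without strand over GENCODE 38 gene names and left out reads that mapped to several places or to several genes. The table used here carries no such command. If it was counted in the same way, overlapping genes and near-identical copies are undercounted.

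From these counts, genes with few reads were dropped (filterByExpr), libraries were scaled by TMM, and edgeR 4.0.16 (R 4.3.3) fitted the quasi-likelihood test to the 4 libraries alone, with 2 residual degrees of freedom and Benjamini-Hochberg adjustment at 0.05. Depth ran from 39491595 to 50348794 counted reads. The SE is the log2 fold change divided by the square root of F. A fold against 0 reads is a bound against a floor of 3 reads over the group. TPM came from gene lengths in the deposited table. Levels of genes on chromosome Y are not given, and some other genes are not reported here. Deviations of equally numbered replicates were nearly uncorrelated between the lines (-0.02). The labels do not state that equal numbers mark a shared culture, and this correlation cannot settle it. No deposited sample column of the table was left unmapped.

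Genes were named by a rule: defining members of 47 lists, up to 4 members per list and direction with the largest change past the test, the genes with the largest changes, the most abundant genes at least 4-fold apart, and genes without a read in 1 line. CD47, CDKN2B-AS1, CYBB, FOSL2, HLA-B, HOXB1, LTF, NF1, NFKBIA, NFKBIZ, PFKL, PRG2, RASA1, SOX4, TGFBR1 and ZNF486 fall outside it and were chosen after their values were seen. The comparison, the lists and the rule were chosen with earlier results of these data known. Alternatives were other scalings, DESeq2 1.42.0, no filter, a replicate block, more libraries in the fit and each replicate left out.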

Additional observations from a re-analysis of the deposited data

How the results depend on the processing

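The counts of 5972 higher and 6090 lower genes stayed within 1.5 times under all settings tried, and no called gene was called in the opposite direction under any of them. DESeq2's size factors kept 99.8% of the 12062 calls, upper quartile factors 96.4% and DESeq2's Wald test 90.3% of them (10886 calls), and testing 28224 genes with no filter kept 94.4%. Fits with 8 libraries of both lines and with all libraries of the table gave 12212 and 11919 calls. Leaving out each replicate in turn, where the lone library is assumed to vary like the others, gave 4845 to 5873 higher genes, 5096 to 5747 lower, 2062 to 2444 at least 2-fold higher and 2771 to 2857 at least 2-fold lower. Whether the replicate numbers pair the libraries is not known. With the number as a replicate block, 5874 genes were higher and 5968 lower, 2350 and 2997 of them by at least 2-fold. Asking for 5 CPM in place of 1 CPM left 74 genes without a read in MOLM-13 and 55 without one in OCI-AML-3, since fewer genes reach the level. Among named genes, SPI1 passed the test under 2 of 11 settings, NPM1 and OAS1 under 1 each, and SUV39H2 under 2; the cause was not tested. With 2 libraries a line, genes under about 1 CPM rest on few reads.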
